A study of Mus musculus with 10 samples.

Results

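Circadian clock genes were compared between inbred mouse strains in quadriceps muscle. All spots of 9 gene symbols were taken: Arntl and Clock as the positive arm, and Per1, Per2, Per3, Cry1, Cry2, Dbp and Nr1d1 as the negative arm. The array lacked none of them. Each gene had 1 oligonucleotide printed on 2 spots, so the members were 9 of the 7697 features tested, read from 18 spots. Measurements came from young adult male mice of CBA/CaOlaHsd (CBA), C57Bl/10ScSnOlaHsd (BL10), C57Bl/6JOlaHsd (BL6), DBA/2OlaHsd (DBA) and BALB/cOlaHsd (BALB), with 2 animals per strain. Animals are named by strain and number, such as BL10 1. On each of 10 arrays, cDNA of an animal in the dye Cy5 was hybridised together with cDNA of an animal from a different strain in Cy3. The time of day at which the mice were killed was not given in the sources used here, and it cannot be told apart from strain or animal where it differed.

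The circadian clock is a feedback loop of transcription. Arntl (also called Bmal1) and Clock encode transcription factors that form a pair, bind the E-box sequence and switch on the Per and Cry genes, whose proteins return to the nucleus and block the pair. Nr1d1 encodes REV-ERB alpha, which the pair switches on and which represses Arntl, and Dbp encodes an output factor that binds the D-box. In skeletal muscle the loop runs as in other tissues, with Arntl messenger RNA peaking at the opposite time of day to Dbp, Nr1d1 and the Per genes. Cry1 messenger RNA peaks later than that of the Per genes, and Clock messenger RNA cycles weakly, so the arms as grouped here are not strict opposites in phase.

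The values of 2 arrays, labelled BL6 2 over CBA 1 and BALB 1 over CBA 2, were identical at every spot, so at least 1 of them does not hold the animals its label names. Both were left out, and 8 arrays remain. Each CBA animal then stays on 1 array, in Cy5 and against a BL10 animal, so CBA can be set against any strain only through the fitted dye effect, which is the part of a ratio that follows the dye rather than the animal. A level below is the fitted log2 level of a gene in a strain relative to the mean of the 5 strains, and its error is the standard error (SE) of the fit. No level is comparable between genes. The p-values measure the spread among 2 animals per strain and their arrays, with the spread of each gene drawn toward that of all features. The ratio of animal to array variance was common to all features. In bulk muscle, fewer cells of a type and less RNA per cell cannot be told apart.

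None of the clock genes differed between strains past the threshold, a false discovery rate of 10%. In limma's moderated F test 0 of 9 members passed, beside 0.130% of all features, and 0 of 9 had an unadjusted p under 0.05, beside 14.0% of all features. In the contrasts of 1 strain with the mean of the other 4, again 0 of 9 passed, beside 0.143% of all features passing in any strain, and in the 10 pairs of strains 0 of 9 passed, beside 4.60%. Without adjustment, Dbp was under 0.05 in 3 strain contrasts and 6 pairs and Nr1d1 in 1 pair, so 1 of 9 members was under 0.05 in any strain contrast, beside 31.5% of all features, and 2 of 9 in any pair, beside 42.0%. The range between the highest and the lowest strain had a median of 0.30 over the members and 0.45 over all features. Dbp, with a range of 0.63, and Cry1, with 0.53, were the members with the widest ranges.

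**Figure D1:**
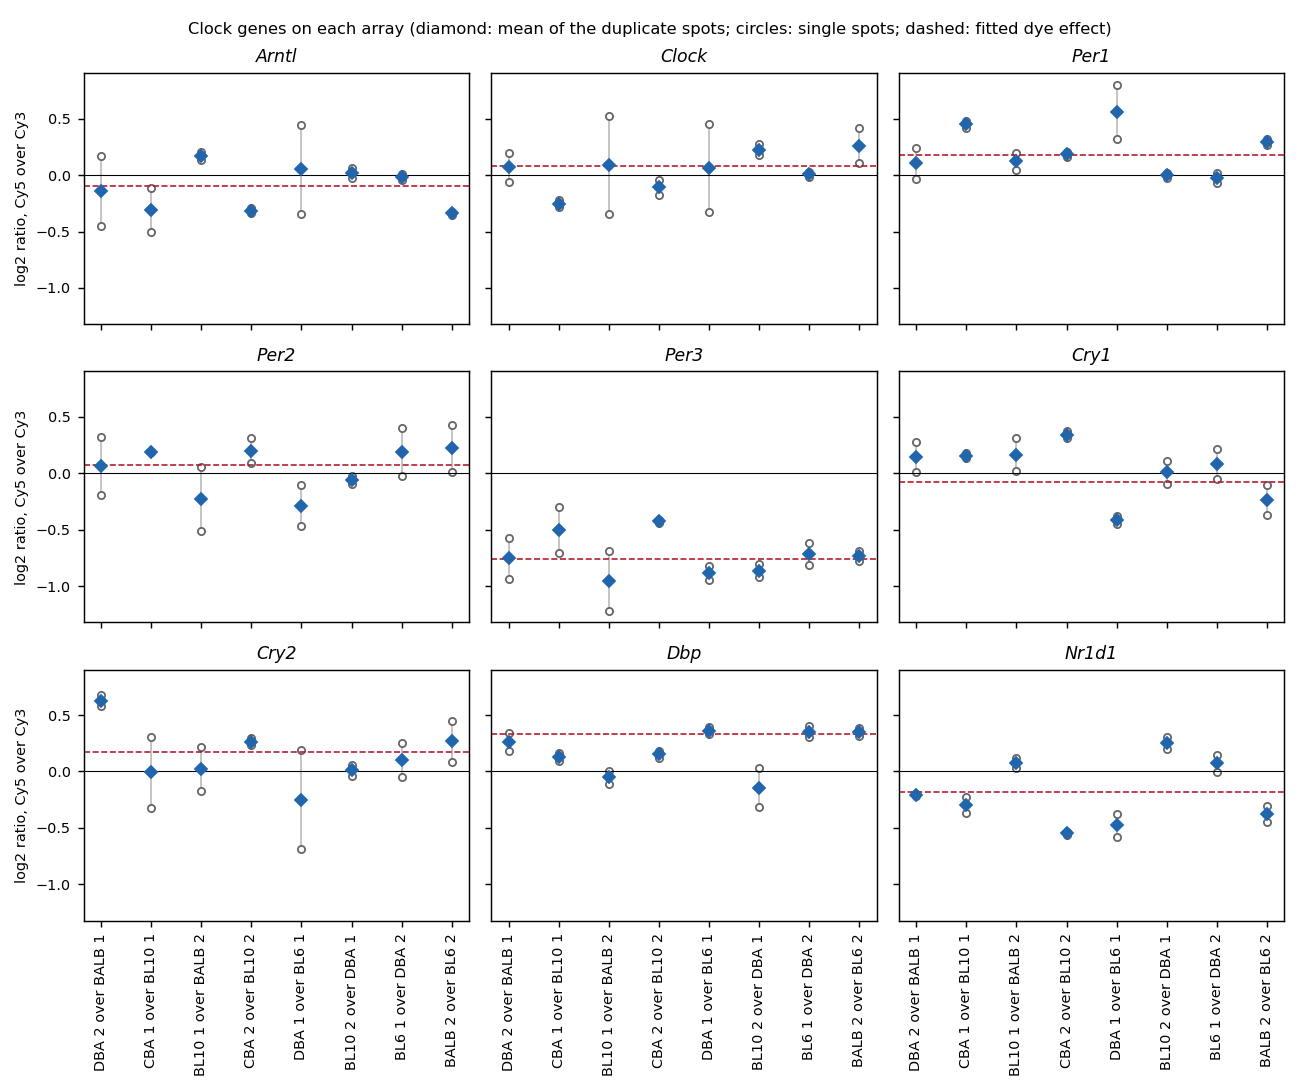
Log2 ratio of Cy5 over Cy3 for each clock gene on the 8 arrays, centred on the array median. Diamonds are the mean of the duplicate spots, open circles the single spots, and the dashed line the fitted dye effect. Per3 lies below 0 on all 8 arrays, whichever strain was in Cy5, and Nr1d1 has the closest duplicate spots.

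How well a member was measured differed from gene to gene. The duplicate spots of Nr1d1 differed by 0.13 on the log2 scale (root mean square over 8 arrays), less than for most features, whose median was 0.28, and those of Dbp by 0.15. Their spots correlated over the 8 arrays at r = 0.91 for Nr1d1 and 0.76 for Dbp. Correlations were 0.69 for Per1, 0.68 for Cry1 and 0.67 for Cry2. For Per3 the value was 0.23, and for Per2, Arntl and Clock it was 0.02, -0.05 and -0.18, so that on a single array the spots of these genes did not rank the arrays alike. These correlations describe 8 arrays that share animals.

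Nr1d1 (chr11:98767932-98775377 on GRCm38.p6) was highest in BL10, at 0.21 (SE 0.10), followed by BL6 at 0.10 (SE 0.12), CBA at -0.03 (SE 0.17), BALB at -0.11 (SE 0.11) and DBA at -0.17 (SE 0.09). The ratios were 0.08 for BL10 1 over BALB 2 and 0.25 for BL10 2 over DBA 1. With BL10 in Cy3 they were -0.30 for CBA 1 over BL10 1 and -0.55 for CBA 2 over BL10 2. On these 4 arrays the BL10 animal was thus the higher in either dye. DBA 1 over BL6 1 gave -0.48 and BL6 1 over DBA 2 gave 0.07, a pair of arrays with the dyes exchanged. Taken over that pair the dye cancels, and BL6 1 exceeded the DBA animals by 0.28. The remaining ratios were -0.21 for DBA 2 over BALB 1 and -0.38 for BALB 2 over BL6 2. BL10 exceeded the mean of the other 4 strains by 0.26 (SE 0.12, adjusted p = 0.665), and BL10 exceeded DBA by 0.38 (SE 0.16, 95% interval 0.0087 to 0.74, adjusted p = 0.719). No neighbours in the order of strains differed at an unadjusted p under 0.05. BL10 stayed above the mean of the strains under each of 19 other ways of processing that give levels, from 0.12 to 0.27, and DBA below it, from -0.24 to -0.09.

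Dbp (chr7:45705100-45710203) was lowest in CBA, at -0.41 (SE 0.16), and low in BL10, at -0.21 (SE 0.09). BL6, DBA and BALB lay together at 0.20 (SE 0.11), 0.20 (SE 0.09) and 0.22 (SE 0.11). The ratios were 0.36 for DBA 1 over BL6 1, 0.35 for BL6 1 over DBA 2, 0.35 for BALB 2 over BL6 2 and 0.26 for DBA 2 over BALB 1. On these 4 arrays among BL6, DBA and BALB the Cy5 channel was the brighter by about the same amount, and exchanging the dyes between BL6 and DBA did not turn the sign. The fitted dye effect was 0.33. The other ratios were 0.13 for CBA 1 over BL10 1 and 0.15 for CBA 2 over BL10 2, below that dye effect, and -0.05 for BL10 1 over BALB 2 and -0.14 for BL10 2 over DBA 1, further below it. With the dye effect subtracted and values set relative to the mean of the CBA, BL10, BL6 and BALB animals of the same loop of arrays, the CBA animals were at -0.34 and -0.37, the BL10 animals at -0.14 and -0.19, and the other 6 animals between 0.23 and 0.30. CBA lay below the mean of the other 4 strains by 0.51 (contrast -0.51, SE 0.20, adjusted p = 0.417). This order rests on the array set and on the dye term. The CBA contrast was 0.08 with all 10 arrays as labelled, 0.0075 with the shared values entered as BALB 1 over CBA 2, -0.01 with them entered as BL6 2 over CBA 1, and 0.09 without a dye term. It was -0.20 (SE 0.42) without BL6 1. Leaving out BALB 2 gave -0.62 (adjusted p = 0.0784), in a fit with 1 residual degree of freedom in which 48.8% of all features passed the F test.

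**Figure D2:**
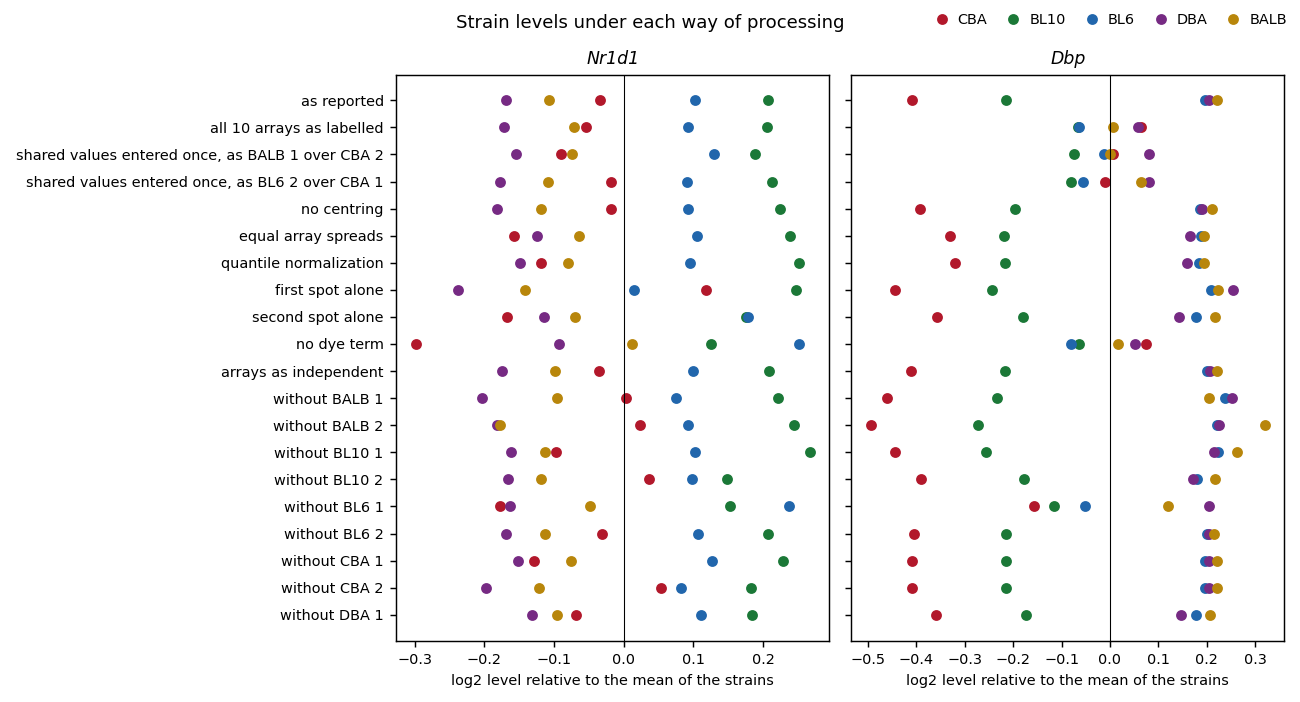
Fitted log2 levels of Nr1d1 and Dbp in the 5 strains, relative to the mean of the strains, as reported and under 19 other ways of processing. BL10 stays above 0 and DBA below 0 for Nr1d1, while CBA moves from -0.41 to near 0 for Dbp when the identical arrays are entered or the dye term is dropped.

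The Per genes encode the repressor partners that accumulate with CRY proteins. Per1 (chr11:69095108-69109965) was lowest in BL6, at -0.17 (SE 0.13), and between -0.05 and 0.09 in the other strains. In 4 of 19 other ways of processing BL10 was the lowest strain for Per1, among them all 10 arrays as labelled (BL10 -0.11, BL6 -0.05). The Per1 ratio was 0.56 for DBA 1 over BL6 1 and -0.03 for BL6 1 over DBA 2. With the dyes cancelled, BL6 1 lay 0.30 below the DBA animals (BL6 minus DBA -0.30). Per2 (chr1:91415977-91459351) was lowest in BL10, at -0.17 (SE 0.10), and highest in BL6, at 0.13 (SE 0.13), with BALB at 0.12 (SE 0.12). With the second spot alone BL6 was the lowest strain for Per2, at -0.10, and the BL10 level was -0.02, against -0.32 with the first spot alone. Per3 (chr4:150997018-151044707) was also lowest in BL10, at -0.16 (SE 0.09), and highest in CBA, at 0.13 (SE 0.16). The CBA level of Per3 was below the mean of the strains in 7 of 19 other ways of processing, among them -0.97 without a dye term, -0.23 with equal array spreads and -0.04 without BL6 1, while BL10 was below the mean in all 19. All 8 ratios of Per3 were below 0, from -0.96 to -0.43, and its dye effect of -0.76 was larger than the spread of its strain levels. BL10 lay below the mean of the other strains by contrasts of -0.22 (SE 0.13, adjusted p = 0.712) for Per2 and -0.20 (SE 0.12, adjusted p = 0.706) for Per3.

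Promoter sequence was read for the elements named above. RefSeq promoter windows on GRCm38.p6, of 250 bases before a transcript start, were found for 8 of the 9 genes, 12 windows in all, with none for Per2. The E-box letters CACGTG stand in 2 of the 12 windows, 1 of Per1 and that of Cry1, and in 6.02% of 32851 windows of all genes. The D-box letters TTATGTAA, searched on both strands, stand in 1 window, that of Per3, and in 0.819% of all windows. The letters AGGTCA, the core bound by REV-ERB and ROR receptors, stand on either strand in 1 Per1 window and 1 Clock window, and in 14.0% of all windows. No match overlaps another. The windows of Per1, Cry1 and Per3 are shown because they hold an E-box or a D-box, 5′ to 3′ on the strand of the gene and ending next to the start, with matches in capitals. The Per1 window lies at chr11:69098699-69098948 on the plus strand, with the E-box 166 bases before the start and the AGGTCA core, read on the opposite strand, 137 bases before it. The Cry1 window lies at chr10:85185055-85185304 on the minus strand, with the E-box 60 bases before the start. The Per3 window lies at chr4:151044666-151044915 on the minus strand, with 2 D-boxes, 205 and 158 bases before the start.
Per1: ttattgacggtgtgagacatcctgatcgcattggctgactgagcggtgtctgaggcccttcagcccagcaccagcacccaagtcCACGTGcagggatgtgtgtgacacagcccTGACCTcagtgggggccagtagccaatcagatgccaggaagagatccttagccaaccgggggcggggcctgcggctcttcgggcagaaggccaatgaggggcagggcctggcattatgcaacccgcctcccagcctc
Cry1: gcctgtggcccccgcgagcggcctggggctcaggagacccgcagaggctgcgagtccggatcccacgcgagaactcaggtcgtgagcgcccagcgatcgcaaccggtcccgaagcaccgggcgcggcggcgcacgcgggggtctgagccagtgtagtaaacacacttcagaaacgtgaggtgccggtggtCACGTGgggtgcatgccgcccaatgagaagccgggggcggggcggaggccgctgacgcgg
Per3: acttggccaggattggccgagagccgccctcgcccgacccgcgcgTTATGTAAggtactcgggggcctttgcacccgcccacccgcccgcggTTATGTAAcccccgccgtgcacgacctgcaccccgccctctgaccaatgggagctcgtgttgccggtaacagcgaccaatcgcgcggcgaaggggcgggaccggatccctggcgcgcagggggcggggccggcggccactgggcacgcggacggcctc

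The Per3 window holds D-boxes, and the Per1 window shown holds an E-box and an AGGTCA core. A further Per1 window holds none of these elements. As reported, Per3 was lowest in BL10 and Per1 in BL6. In 4 of 19 other ways of processing, BL10 was the lowest strain for Per1 as well. The windows come from the GRCm38.p6 reference and were not read by strain. No member passed the test, so the strain orders are values only. Any link between these elements and the strain levels was not tested.

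The Cry genes encode the stronger repressors of the loop. Cry1 (chr10:85131700-85185054) was highest in CBA, at 0.30 (SE 0.18), and lowest in BALB, at -0.23 (SE 0.12). CBA 1 over BL10 1 gave 0.16, CBA 2 over BL10 2 gave 0.34, BALB 2 over BL6 2 gave -0.24 and DBA 1 over BL6 1 gave -0.42. CBA exceeded BALB by 0.53 (SE 0.27, 95% interval -0.08 to 1.15, adjusted p = 0.462). The contrast of CBA with the other 4 strains was 0.38 (SE 0.22, adjusted p = 0.512). It was 0.03 with all 10 arrays as labelled. With the shared values entered once it was -0.01 as BALB 1 over CBA 2 and 0.15 as BL6 2 over CBA 1. Cry2 (chr2:92403646-92434085) ran from -0.16 (SE 0.25) in CBA to 0.17 (SE 0.17) in BL6. Its ratios reached 0.63 for DBA 2 over BALB 1 and -0.25 for DBA 1 over BL6 1, the latter from spots at -0.69 and 0.19. The partners on these arrays differed. With the dye effect subtracted and values set relative to the same loop mean as for Dbp, DBA 2 was at 0.44, DBA 1 at -0.06 and BL6 1 at 0.37. Cry2 had the largest difference between duplicate spots of the members, 0.44.

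In the positive arm, Arntl (chr7:113178471-113314126) was highest in BL10, at 0.14 (SE 0.10), and lowest in BALB, at -0.09 (SE 0.12). BL10 was highest for Arntl with either spot alone, at 0.15. The lowest strain was BALB with the first spot alone, at -0.20, and CBA with the second, at -0.21, against 0.08 in CBA with the first. With BL10 in Cy3 the Arntl ratios were -0.31 for CBA 1 over BL10 1 and -0.31 for CBA 2 over BL10 2. With BL10 in Cy5 they were 0.17 for BL10 1 over BALB 2 and 0.02 for BL10 2 over DBA 1. Clock (chr5:76209868-76305603) was highest in BL10, at 0.11 (SE 0.09), and lowest in CBA, at -0.15 (SE 0.16). With the first spot alone Clock was highest in BALB, at 0.16, and lowest in DBA, at -0.14, with BL10 at 0.03. With the second alone it was highest in BL10, at 0.21, and lowest in CBA, at -0.23. The Clock ratios were -0.25 for CBA 1 over BL10 1, -0.11 for CBA 2 over BL10 2, 0.09 for BL10 1 over BALB 2 and 0.23 for BL10 2 over DBA 1. Neither gene passed the test in BL10 against the other 4 strains (Arntl 0.18, SE 0.13, adjusted p = 0.733, and Clock 0.14, SE 0.12, adjusted p = 0.773).

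**Figure D3:**
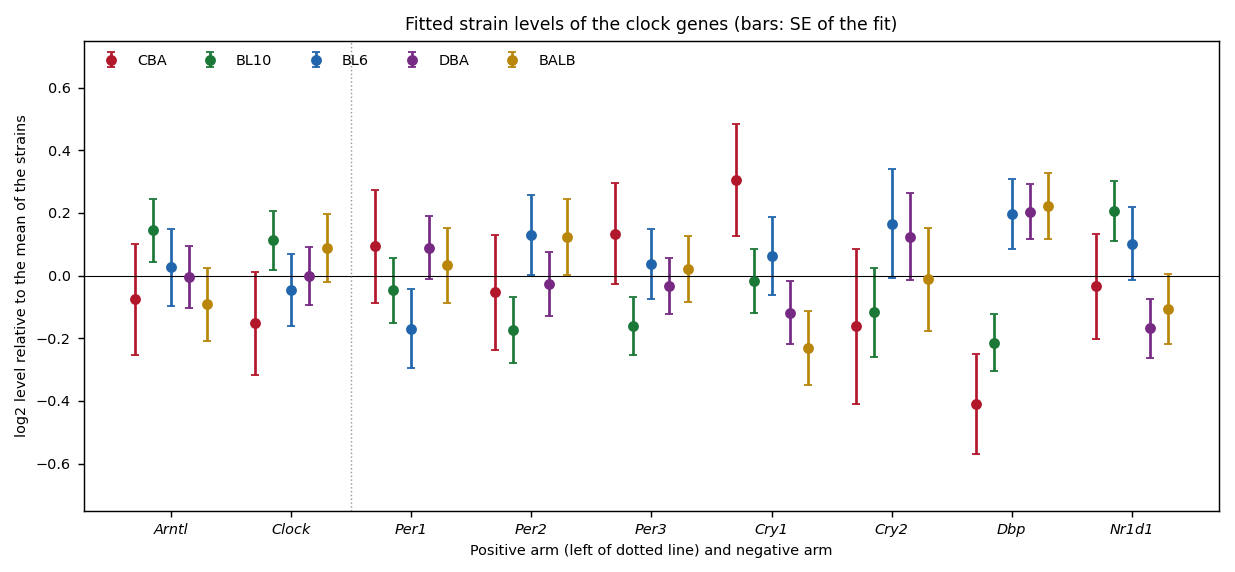
Fitted log2 levels of the 9 clock genes in the 5 strains, relative to the mean of the strains, with bars for the SE of the fit. BL10 (green) is highest for Arntl, Clock and Nr1d1 and lowest for Per2 and Per3. CBA has the widest bars.

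Set against each other, the arms lay furthest apart in BL10. Both positive-arm genes were above the mean of the strains there and 6 of the 7 negative-arm genes below it, with Nr1d1 the exception at 0.21. In CBA 0 of 2 positive-arm genes were above and 4 of 7 negative-arm genes below, in BL6 the counts were 1 and 1, in DBA 0 and 4, and in BALB 1 and 3. The mean of Arntl and Clock less the mean of the other 7 genes was 0.20 (SE 0.07) in BL10, -0.10 (SE 0.12) in CBA, -0.09 (SE 0.09) in BL6, -0.01 (SE 0.07) in DBA and -0.01 (SE 0.08) in BALB. The animals BL10 1 and BL10 2 gave 0.18 and 0.24, and the other 8 animals lay between -0.18 and 0.04. This difference of arms is a description with no test, since its genes were chosen with results of these data known. Its SE comes from a fit of its own with 3 residual degrees of freedom. That fit shares no spread with other features, unlike the SE of a gene's level. In BL10 it stayed between 0.14 and 0.25 over the 19 other ways of processing and was the highest of the strains in 18 of them, the exception being the fit without BALB 2, in which BALB stood at 0.21. With the first spot of each oligonucleotide alone the difference in BL10 was 0.18 (SE 0.03), and with the second alone 0.23 (SE 0.13).

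**Figure D4:**
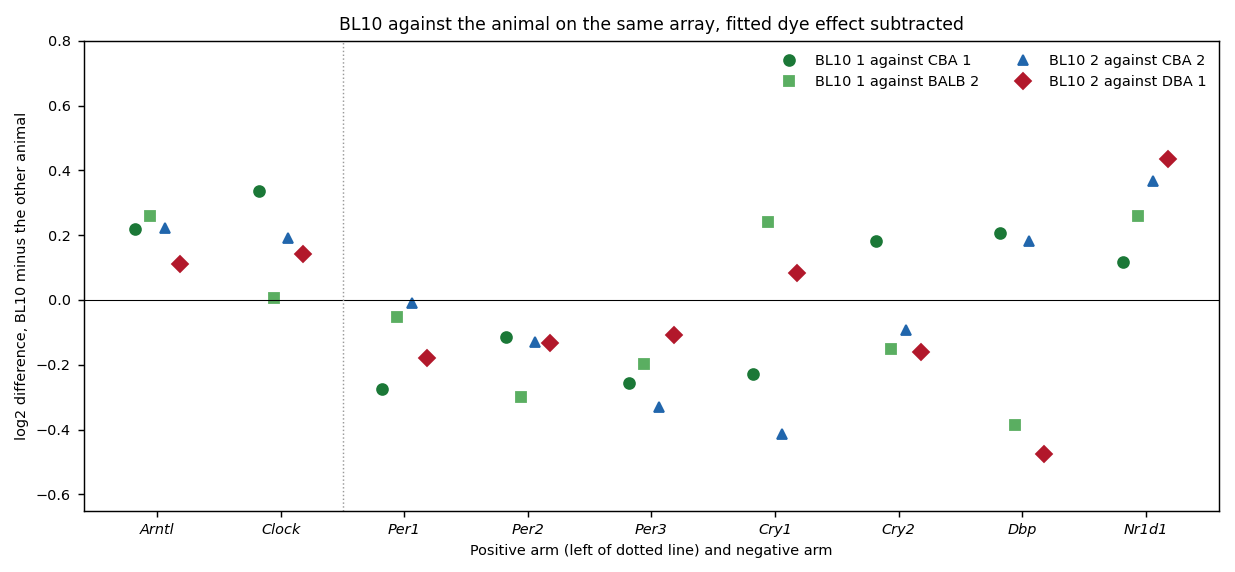
Log2 difference of the BL10 animal from the animal on the same array, with the fitted dye effect of each gene subtracted, for the 4 arrays that hold BL10. Arntl, Clock and Nr1d1 lie above 0 on all 4 arrays and Per1, Per2 and Per3 below 0 on all 4, while Cry1 and Dbp lie on either side. Values are means of duplicate spots, which for Clock, Per1 and Per3 did not always share a sign.

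The 4 arrays with BL10 hold 2 BL10 animals and share a dye estimate for each gene, so they are not 4 separate samples. The fitted BL10 levels rest on these same arrays, so the signs below largely restate those levels and are not separate support for them. Of all features, 6.83% had the BL10 animal above its partner on all 4 and 9.03% below on all 4. After subtraction of the dye effect, the BL10 animal was above its partner on 4 of 4 arrays for Arntl (0.11 to 0.26), Clock (0.01 to 0.34) and Nr1d1 (0.12 to 0.43). It was below on 4 of 4 arrays for Per1 (-0.27 to -0.01), Per2 (-0.30 to -0.11) and Per3 (-0.33 to -0.11). These are means of duplicate spots, which did not always share a sign. For BL10 1 against BALB 2 the spots were -0.425 and 0.436 for Clock, -0.13 and 0.02 for Per1, and -0.46 and 0.07 for Per3. For BL10 2 against CBA 2 those of Per1 were 0.01 and -0.03. For Cry2 the BL10 animal was below on 3 of 4 arrays. For Cry1 and Dbp it was split by partner: Cry1 was lower in BL10 than in CBA and higher than in BALB or DBA, and Dbp was higher in BL10 than in CBA and lower than in BALB or DBA. Over all 8 arrays Arntl ran against Per3 (r = -0.84) and Per2 (r = -0.83), and with Nr1d1 (r = 0.62), while Per2 and Per3 ran together (r = 0.79). Per1 ran against Nr1d1 (r = -0.73) and Clock against Per3 (r = -0.71). Weaker pairs included Arntl with its partner Clock (r = 0.33), Per1 (-0.27), Cry1 (-0.19), Cry2 (-0.44) and Dbp (-0.33), and Per1 with Per2 (-0.21). These correlations of dye-adjusted ratios come from 8 arrays that share animals, and are given without a test. Over the same arrays the duplicate spots of a gene correlated at only -0.05 for Arntl, 0.02 for Per2, 0.23 for Per3 and -0.18 for Clock. In likeness to Nr1d1, Arntl ranked 120 of 6751 named features.

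Markers of other cell types varied between strains too. Among the fibroblast markers, Col1a1 and Col3a1, which encode collagen chains, were at 0.50 and 0.61 in BL10 and at -0.65 and -1.0 in BL6, and Dcn, the third measured of the 4 listed, was at 0.11 and -0.35. Their median was 0.50 in BL10, 0.54 in CBA, 0.13 in BALB, -0.36 in DBA and -0.65 in BL6. Of 4 blood markers 2 were measured, and Hba-a1, a haemoglobin chain, was at 1.15 in BL10 and Alas2 at 0.06. The skeletal muscle markers Acta1, Ckm, Tnnt3, Tnni2 and Des, 5 of 8 listed, had a median of -0.09 in BL10, -0.21 in CBA, -0.17 in BL6, 0.07 in DBA and 0.38 in BALB. In BL10 the median was -0.08 for adipocyte, -0.03 for endothelial, 0.03 for Schwann cell and 0.03 for macrophage markers. Single markers lay far from such medians. The adipocyte marker Fabp4 was at 0.76 in BL10, beside Adipoq at -0.12, Lep at -0.04 and Ucp1 at -0.22. The macrophage marker Cd68 was at 1.05 in CBA, beside Lyz2 at 0.09 and Adgre1 at -0.31. None of these markers passed the F test at 10%. Ratios give no absolute level, so the tissue could not be checked against the presence of its markers. The part of cell makeup in the clock gene values was not tested.

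Further genes of the clock were read from a list of 26, of which 13 were on the array as 14 features. Of these 0 passed the F test, beside 0.130% of all features, and 4 of 14 had an unadjusted p under 0.05, beside 14.0%. The median range was 0.42, beside 0.45 over all features. Bhlhe40, which encodes the repressor DEC1, was at -0.51 in BL6 and 0.41 in BALB (adjusted p = 0.197). Tef, a D-box factor related to Dbp, was at 0.56 in CBA and -0.32 in DBA (adjusted p = 0.259), so CBA stood highest for Tef and lowest for Dbp. Csnk1a1, a casein kinase, ran from -0.40 in BL6 to 0.50 in BALB (adjusted p = 0.334), and Rora, which activates Arntl through the element that REV-ERB binds, from -0.27 in BL6 to 0.24 in CBA (adjusted p = 0.35). Nr1d2, the relative of Nr1d1 that encodes REV-ERB beta, was at -0.28 in CBA, -0.21 in BL10 and 0.26 in BL6 (adjusted p = 0.545), so in BL10 it stood on the other side of the mean from Nr1d1. Sirt1, a deacetylase that acts on clock proteins, was at 0.42 in CBA and between -0.16 and -0.07 in the other strains (adjusted p = 0.464).

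Genes that follow the clock or glucocorticoids in muscle came from a list of 27, of which 23 were on the array as 24 features. Of these 0 passed and 3 of 24 had an unadjusted p under 0.05, beside 0.130% and 14.0% of all features, and the median range of 0.46 was close to the 0.45 of all features. Tcap, which encodes the sarcomere protein telethonin, ran from -0.85 in BL6 to 1.03 in BALB (adjusted p = 0.181). Fkbp5, a glucocorticoid-responsive chaperone, was at 0.63 in CBA and -0.43 in BL6 (adjusted p = 0.241). Klf9, another glucocorticoid-responsive factor, was at -0.51 in BL6 and 0.31 in BALB (adjusted p = 0.301). Nampt, the enzyme of NAD salvage that the clock drives, was lowest in CBA, at -0.43, and highest in BALB, at 0.34 (adjusted p = 0.777). Hk2 was at 0.41 in CBA and -0.26 in BALB (adjusted p = 0.693), and a further feature of Hk2 at 0.31 and -0.14 (adjusted p = 0.947). Tsc22d3, a glucocorticoid-responsive gene, was at -0.29 in BL10 and 0.37 in BALB (adjusted p = 0.473).

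Nr1d1 varied most over the arrays among the members once the dye effect was subtracted, with an SD of 0.29. Over the 8 arrays the named features most like it were Serpinh1 (r = 0.96), Trf (0.89), Vmn1r49 (0.88), Tpm2 (0.86) and Mmel1 (0.86), and those most opposed were Slc37a4 (-0.94), Cd55b (-0.93), C1qbp (-0.92), Selenok (-0.92) and Abcb8 (-0.91), out of 6751. Among the members, Arntl ranked 120 from the top, Clock 775, Cry1 1683, Cry2 3687, Per2 4521, Per3 6139, Dbp 6315 and Per1 6636.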

How the data were processed

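The authors scanned 2-colour spotted oligonucleotide arrays, extracted spots with GenePix Pro, subtracted local background and normalized by VSN. They deposited, for 15552 spots per array, 1 ratio on a natural log scale, read here as Cy5 over Cy3. Scale and direction were inferred from the method and the dye labels. The files give no spot brightness, so depth is unknown. Ratios were converted to log2, duplicate spots averaged, 80 control features averaged to 1, and each array centred on its median. Symbols came from the array annotation updated through RefSeq (GRCm38.p6). The fit, in limma 3.58.1 (R 4.3.3), had strain terms, a gene-wise dye term and the animal as a random effect (variance ratio 0.446 by restricted maximum likelihood), with 3 residual and 6.13 prior degrees of freedom. P-values were Benjamini-Hochberg adjusted over 7697 features, at an FDR of 10%. Values of single animals used MASS 7.3.60.0.1. The steps were tested on simulated data. Genes were named by a rule: all members, list genes with an unadjusted p under 0.05 and up to 4 more per list with the widest range, and the 5 features most like and 5 most unlike Nr1d1. The members and lists were chosen with earlier results of these data known. Alternatives were other array sets, scalings, single spots, no dye term, other variance models and leaving out each animal.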

Additional observations from a re-analysis of the deposited data

How the results depend on the processing

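No paired analysis was possible because the numbers in the labels name animals within a strain, and each array already sets animals of different strains against each other. Of 171 values of the members' largest contrasts under other settings, 165 kept direction and side of the threshold, 5 reversed and 1 came to pass. Reversed were Dbp in CBA (0.08 with all 10 arrays, 0.0075 with the shared values as BALB 1 over CBA 2, 0.0929 without a dye term), Cry1 in CBA (-0.0119 with the shared values as BALB 1 over CBA 2) and Cry2 in BL6 (-0.106 without BALB 1, and up to 0.909, without BL6 1, as single animals were left out). The cause was not tested. Members with an unadjusted p under 0.05 in the F numbered 1 with all 10 arrays, with the shared values as BL6 2 over CBA 1, with equal array spreads, with quantile normalization and with arrays as independent, in each case Nr1d1, and 2, Per3 and Dbp, in the ordinary test. In that order, 755, 789, 1427, 1209 and 1169 of all 7697 features were under 0.05, and 732 in the ordinary test. With so many features under 0.05, these counts do not set the members apart. Leaving out 1 animal left 1 animal in its strain. Cry1, Cry2 and Nr1d1 passed the F without BALB 2. Some strain contrasts of members passed without BALB 2 or without DBA 1. In these fits large shares of all features passed the F, so such passes are not results about the members. Fits without 1 animal had 1 or 2 residual degrees of freedom, and the one without DBA 2 could not be fitted. Over all features, 10 passed as reported, 6 with all 10 arrays, 33 with the shared values as BL6 2 over CBA 1, 196 with equal spreads, 133 with quantile normalization, 3 with the first spot alone, 3 without a dye term, 0 in the ordinary test (732 at an unadjusted p under 0.05), and 4 to 3755 without 1 animal. Precision is limited by 2 animals per strain and 8 arrays.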
